A study of Drosophila melanogaster with 2 samples.

Results

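The nuclear transfer RNA (tRNA) genes of Drosophila melanogaster are described here for their place in the chromatin map of tx (taxi, or delilah), which is a transcription factor of the basic helix-loop-helix (bHLH) class. They are all genes of biotype tRNA on the arms 2L, 2R, 3L, 3R and X and on chromosome 4 in the Ensembl annotation, which gave 290 genes of 23973 in all. No tRNA gene was annotated on chromosome 4, and 22 further tRNA genes lie off these 6 chromosomes and were left out. Chromatin immunoprecipitation with sequencing (ChIP-seq) was run on whole embryos aged 0 to 24 h, sexes pooled, from a transgenic line that makes tx with green fluorescent protein (GFP) at its C-terminus. An antibody against GFP was used on chromatin sonicated to 200 to 800 bp, in 2 biological replicates that form 1 group. Both replicates come from 1 stable line and their peaks were called against 1 shared control, so values of the replicates are not fully independent. No embryos without the tag were analysed here, the read depth behind the peaks is unknown, and whole embryos mix all cell types, so that strong binding in few cells and weak binding in many cannot be told apart.

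Transfer RNA genes are transcribed by RNA polymerase III (Pol III) from promoters inside the gene. The factor TFIIIC binds the internal elements named box A and box B and places TFIIIB, which holds Brf, Bdp1 and a TBP-type protein, just upstream of the gene, and TFIIIB recruits the polymerase. In Drosophila the TBP-type protein is the TBP-related factor Trf. The genes of 1 isotype, meaning the genes whose tRNAs carry the same amino acid, are often present in many near-identical copies and in clusters. Initiator methionine genes were counted here as an isotype apart from the other methionine genes. bHLH proteins bind DNA as dimers at the E-box, a 6-base motif written CANNTG.

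The 290 genes fell into 22 isotypes and 45 anticodon families, and they held 95 distinct gene sequences. Their median length was 73 bp (range 71 to 186 bp), and 16 contained an intron. Joined wherever neighbours lay at most 1000 bp apart, they formed 174 loci, of which 105 held a single gene. The other 69 loci held 185 genes, and 5 loci held at least 5 genes each. The median distance to the nearest transcription start site (TSS) of a protein-coding gene was 2858 bp, with 80 genes within 1000 bp of a TSS and 210 beyond it. Introns of protein-coding genes held 127 tRNA genes, 7 overlapped exons and 156 lay outside protein-coding genes. Of the genes inside a host gene, 59 were on the strand of the host and 75 on the opposite strand.

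The sequences of 3 tRNA genes and of 4 peak summits are shown, all at peaks of the authors' optimal set, which is described below. The internal promoter lies in the first group of sequences, while the peaks lie in the second. In the genes, capitals mark the box A core GCNNAGNNG and the box B core GTTCNANNC, searched on the strand of the gene, where N is any base. The box B core occurred in 271 of the 290 tRNA genes and the box A core in 146. The sequences are those of the Release 6 genome (dm6), with tRNA:Tyr-GTA-1-8 at chr3R:8669081-8669174 (minus strand), tRNA:Val-CAC-2-5 at chr3R:19672277-19672349 (minus strand) and tRNA:Asp-GTC-1-5 at chr2L:8541761-8541832 (plus strand).
tRNA:Tyr-GTA-1-8: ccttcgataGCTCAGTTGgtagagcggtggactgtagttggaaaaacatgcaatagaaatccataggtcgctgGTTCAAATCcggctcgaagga
tRNA:Val-CAC-2-5: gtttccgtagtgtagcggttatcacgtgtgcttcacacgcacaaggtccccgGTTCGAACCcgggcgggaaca
tRNA:Asp-GTC-1-5: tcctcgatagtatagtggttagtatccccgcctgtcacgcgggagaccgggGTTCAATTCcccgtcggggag

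The 101 bp windows centred on the peak summits nearest to 4 tRNA genes follow, on the plus strand of dm6, with any E-box CANNTG in capitals. They lie at chr3R:8669342-8669442 beside tRNA:Tyr-GTA-1-8, at chrX:3427674-3427774 beside tRNA:Gln-TTG-2-1, at chrX:6744225-6744325 beside tRNA:Phe-GAA-1-2 and at chr2L:8542029-8542129 beside tRNA:Asp-GTC-1-5.
Summit beside tRNA:Tyr-GTA-1-8: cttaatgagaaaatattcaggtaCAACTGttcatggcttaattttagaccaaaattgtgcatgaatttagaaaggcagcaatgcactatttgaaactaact
Summit beside tRNA:Gln-TTG-2-1: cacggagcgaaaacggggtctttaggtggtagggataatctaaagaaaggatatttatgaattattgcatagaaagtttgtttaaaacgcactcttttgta
Summit beside tRNA:Phe-GAA-1-2: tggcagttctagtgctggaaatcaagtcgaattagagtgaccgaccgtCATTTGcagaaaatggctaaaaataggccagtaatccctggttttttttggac
Summit beside tRNA:Asp-GTC-1-5: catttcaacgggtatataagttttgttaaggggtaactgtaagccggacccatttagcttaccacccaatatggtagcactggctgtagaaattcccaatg
An E-box was present in the windows at the Tyr and Phe genes and not in those at the Gln and Asp genes. Over the windows of all 10 peaks near tRNA genes, 4 (40%) held an E-box, against 1179 of all 3102 summits of the optimal set (38%). The box B sequence GGTTCGA was in 0 of the 10 windows and in 21 of 3102 (0.677%). TATCGATA, the site of the factor DREF, was in 0 of 10 and in 82 of 3102 (2.64%), and TATA was in 5 of 10 (50%) and in 1487 of 3102 (47.9%). All of these were searched on both strands. The GC content of the 10 windows averaged 38.7% (SD 4.77), against 36.2% (SD 8.71) over all 3102.

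The first question was how many tRNA genes lay at a peak of the optimal set. This set, of 3102 peaks, was kept by the irreproducible discovery rate (IDR), which asks how well the ranks of peaks repeat. A peak of this set need not be in the list of each replicate. For example, tRNA:Trp-CCA-2-2 had an optimal summit but no replicate 2 summit within 500 bp. A gene was counted when a summit, the highest point of a peak, lay within 500 bp of the gene body. There were 12 of 290 tRNA genes with such a summit (4.14%, 95% Wilson interval 2.38 to 7.09%), in 10 of 174 loci (5.75%, interval 3.15 to 10.3%). Of all positions on the 6 chromosomes, 2.38% lay as close to a summit. Of the 13945 protein-coding genes, 16.5% had a summit within 500 bp of a TSS. The share of tRNA genes was 1.74 times that of positions (interval 1 to 2.99) and below that of protein-coding genes. The intervals cover the counting of genes only, and tRNA genes of a locus share peaks. All positions include repeat-rich stretches where peaks may be hard to call, so nearer backgrounds are given further on.

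The 12 genes were reached by 10 distinct peaks, and none of the 10 summits fell inside a tRNA gene. The summits lay a median of 230 bp from the nearest tRNA gene and a median of 280 bp from the nearest protein-coding TSS. The TSS was the nearer feature at 5 of the 10 peaks. Only 1 summit was within 100 bp of a tRNA gene, whereas 4 were within 100 bp of a TSS and 8 within 1000 bp of a TSS. Relative to the nearest tRNA gene, 6 summits were upstream and the other 4 downstream.

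The strongest of these peaks stood upstream of tRNA:Tyr-GTA-1-8 (FBgn0012024), which carries an intron and decodes tyrosine codons. Peaks were ranked within their list by the authors' own signal value, rank 1 being the strongest. The peak had rank 139 of 3102 in the optimal set, with a signal of 289, rank 142 in the replicate 1 list and rank 160 in the replicate 2 list. Its summit at chr3R:8669392 lay 218 bp upstream of the tRNA gene and 226 bp from the TSS of CG8036, in an intron. The neighbouring copies Tyr-GTA-1-6 and Tyr-GTA-1-7, in the same locus, had no optimal summit within 500 bp.

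Only 2 of the 12 genes were over 1000 bp from a protein-coding TSS. The first was tRNA:Gln-TTG-2-1 (FBgn0052493) on X, a glutamine tRNA gene in an intron of CG12535. Its peak had rank 1202, with rank 1064 in replicate 1 and rank 1652 in replicate 2, and its summit lay 201 bp upstream and 8083 bp from the nearest TSS, that of CG14269. The other was tRNA:Glu-TTC-1-5 (FBgn0011849), a glutamate tRNA gene outside protein-coding genes. Its peak had rank 1376, with rank 1358 in replicate 1 and 1514 in replicate 2, and its summit was 298 bp downstream and 13086 bp from the TSS of CG8517. Both peaks were therefore in the stronger part of each replicate list and far from any annotated promoter of a protein-coding gene.

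At 4 peaks the summit sat within 100 bp of a TSS. The peak near tRNA:Phe-GAA-1-2, a phenylalanine tRNA gene, was 37 bp from the TSS of RpL17, which encodes a protein of the large ribosomal subunit, and 196 bp from the tRNA gene. It had rank 1412 in the optimal set and rank 1056 in replicate 1, but rank 4864 in replicate 2. The peak at the divergent pair tRNA:Asp-GTC-1-4 and tRNA:Asp-GTC-1-5, of the aspartate isotype, was 68 bp from a TSS of Sema1a, a semaphorin of axon guidance, and 247 bp from the nearer tRNA gene. It ranked 2130 in the optimal set, 2202 in replicate 1 and 2353 in replicate 2. The peak at tRNA:His-GTG-1-3, a histidine tRNA gene, was 77 bp from the TSS of CG8490 and had rank 753. The peak at tRNA:Trp-CCA-2-2 and tRNA:Gly-GCC-1-9 was 34 bp from the TSS of CG30122 and had rank 2306, with rank 1419 in replicate 1 and no replicate 2 summit within 100 bp.

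The remaining 3 peaks were 334 to 389 bp from a TSS. At tRNA:Leu-TAA-2-1, a leucine tRNA gene, the summit was 241 bp upstream of it and 334 bp from a TSS of CG13605, with rank 2495 in the optimal set, 2927 in replicate 1 and 2258 in replicate 2. At tRNA:Thr-AGT-1-4, of the threonine isotype, it was 93 bp upstream and 350 bp from the TSS of CG31279, with rank 2199, and no replicate 2 summit lay within 100 bp of it. At tRNA:Val-CAC-2-5 the summit was 438 bp downstream and 389 bp from the TSS of Naam, which encodes a nicotinamidase, with rank 1257.

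**Figure D1:**
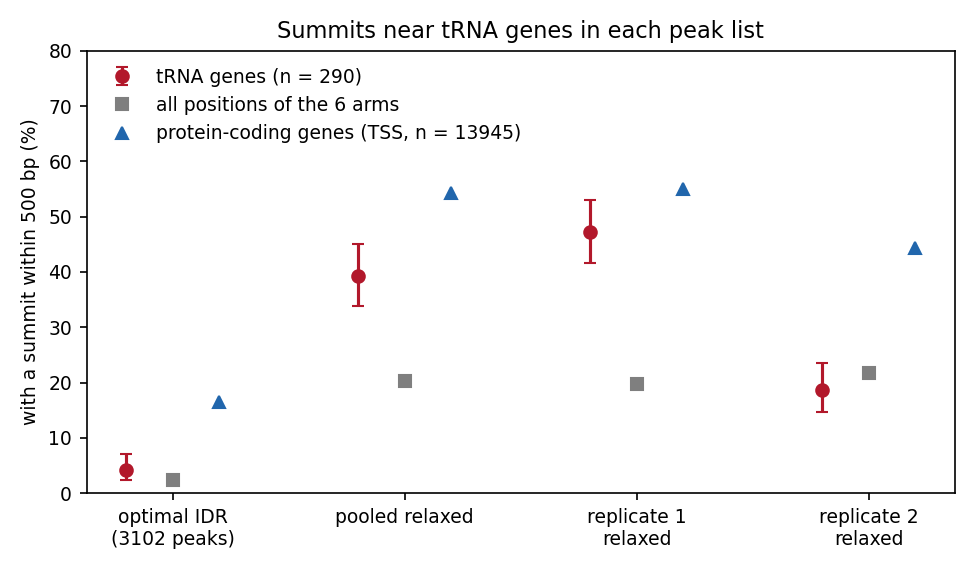
Percentage of 290 tRNA genes with a peak summit within 500 bp (red points, with 95% Wilson intervals over genes), of all positions as close to a summit (grey squares) and of 13945 protein-coding genes with a summit within 500 bp of a TSS (blue triangles), in each of the 4 peak lists. tRNA genes stand above positions in the optimal, pooled and replicate 1 lists and at 18.6%, below the 21.8% of positions, in the replicate 2 list.

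Distance to a protein-coding TSS split the tRNA genes in the optimal set. Within 1000 bp of a TSS, 10 of 80 tRNA genes had a summit (12.5%, Wilson interval 6.93 to 21.5%), beside 7.53% of positions that near a TSS. Beyond 1000 bp, 2 of 210 had one (0.952%, interval 0.262 to 3.41%), beside 1.06% of such positions. By class, 4 of 12 genes up to 250 bp from a TSS had an optimal summit (33.3%, beside 13.2% of positions of that class), 4 of 21 from 250 to 500 bp (19%, beside 8.37%) and 2 of 47 from 500 to 1000 bp (4.26%, beside 2.97%). None of 45 genes from 1000 to 2000 bp (beside 1.79% of positions) and none of 55 from 2000 to 5000 bp (beside 1.37%) had one. Of the 110 genes over 5000 bp from a TSS, the Gln and Glu genes described above were the 2 with a summit (1.82%, beside 0.724% of positions).

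**Figure D2:**
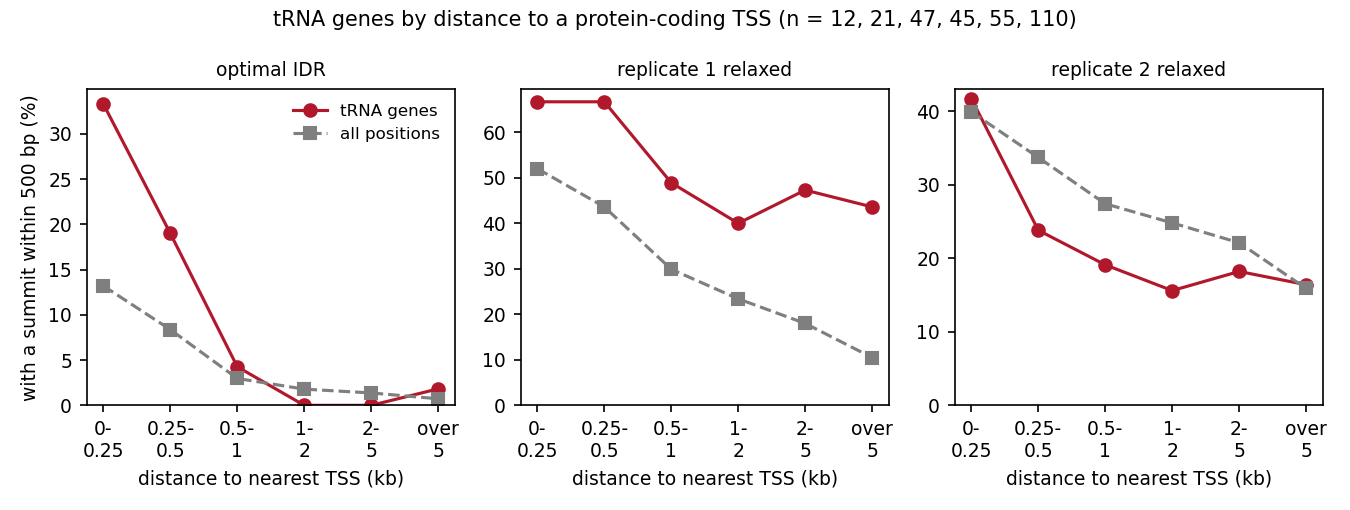
Percentage of tRNA genes (red circles) and of all positions (grey squares) with a summit within 500 bp, by distance to the nearest protein-coding TSS, in the optimal set and in each replicate list. In the optimal set the tRNA share is 0 from 1000 to 5000 bp, where that of positions is 1.79 and 1.37% in the 2 classes. In the replicate 1 list the tRNA share is 40 to 66.7% in every class. In the replicate 2 list it is below the share of positions in 4 of the 6 classes.

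The deposited relaxed lists, of 30000 peaks each, reach much weaker peaks, and there the replicates differed at tRNA genes. The authors label the pooled list as peaks and background for input to IDR. A summit in a relaxed list therefore need not mark binding. In the replicate 1 list 137 of 290 tRNA genes had a summit within 500 bp (47.2%, Wilson interval 41.6 to 53%), beside 19.7% of all positions and 55% of protein-coding genes. In the replicate 2 list 54 tRNA genes had one (18.6%, interval 14.6 to 23.5%), beside 21.8% of positions and 44.3% of protein-coding genes. The pooled list stood between them, with 114 tRNA genes (39.3%, interval 33.9 to 45%), beside 20.3% of positions and 54.3% of protein-coding genes. Counted as loci, there were 89 of 174 in replicate 1 (51.1%), 44 in replicate 2 (25.3%) and 76 in the pooled list (43.7%). The series holds 1 library for each replicate, and the difference between them has no test. The lists also differed as a whole: median peak width was 420 bp in replicate 1 and 376 bp in replicate 2, and 16727 summits of replicate 1 and 20459 of replicate 2 lay over 1000 bp from a TSS. The part of these differences in the tRNA counts was not tested.

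The replicate difference was present on both sides of the TSS limit. Beyond 1000 bp of a TSS, 92 of 210 tRNA genes had a replicate 1 summit (43.8%, beside 14.5% of positions), 35 had a replicate 2 summit (16.7%, beside 18.9%) and 78 had a pooled summit (37.1%, beside 15.4%). Within 1000 bp, 45 of 80 had a replicate 1 summit (56.2%, beside 40.2% of positions), 19 a replicate 2 summit (23.8%, beside 32.9%) and 36 a pooled summit (45%, beside 39.5%). Over 5000 bp from a TSS, 48 of 110 genes had a replicate 1 summit (43.6%, beside 10.5% of positions) and 18 a replicate 2 summit (16.4%, beside 15.9%).

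Gene by gene, 36 tRNA genes in 30 loci had a summit in both replicate lists, 101 in replicate 1 only, 18 in replicate 2 only and 135 in neither. For 22 genes in 19 loci the summits of both replicates lay within 100 bp of each other. Over the 36 genes in both lists the best ranks had a Spearman rho of 0.509, and over their 30 loci 0.576, given as a description because neighbouring genes share peaks and both replicates share a control. Of the 119 distinct replicate 1 summits near tRNA genes, 22 (18.5%, Wilson interval 12.5 to 26.4%) had a replicate 2 summit within 100 bp, beside 26.1% of all replicate 1 summits. Of the 51 distinct replicate 2 summits near tRNA genes, 20 (39.2%, interval 27 to 52.9%) had a replicate 1 summit within 100 bp, beside 26.1% of all replicate 2 summits. Beyond 1000 bp of a TSS the same shares were 16.2% near tRNA genes beside 22.8% overall from replicate 1, and 31.4% beside 18.7% from replicate 2.

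In replicate 1 the share of tRNA genes exceeded that of positions in every tier of peak strength. Among the 3102 strongest replicate 1 peaks 14 tRNA genes had a summit, a share 2.03 times that of positions. The ratio was 2.4 for ranks 3103 to 10000, 2.88 for ranks 10001 to 20000 and 2.04 for ranks 20001 to 30000. In replicate 2, 9 tRNA genes had a summit among the 3102 strongest peaks, 1.31 times the share of positions, and the later tiers gave 0.704, 0.661 and 1.06. The median best rank of a tRNA gene with a summit was 13706 in replicate 1, 15483 in replicate 2 and 13008 in the pooled list. Most tRNA genes with a relaxed summit were thus far below the strength of the optimal set.

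Neighbouring DNA gives a background that does not include distant repeat-rich stretches. In replicate 1 there were 510 distinct summits per Mb within 500 bp of a tRNA gene (95% exact Poisson interval 422 to 610), 368 from 500 to 2000 bp, 291 from 2000 to 5000 bp and 300 from 5000 to 20000 bp (interval 282 to 319). In replicate 2 there were 219 within 500 bp (interval 163 to 287), 264, 265 and 284 (interval 266 to 302) in the same zones. Across the whole arms each relaxed list had 224 per Mb. Replicate 1 was therefore densest beside the tRNA genes, whereas the interval of replicate 2 beside the tRNA genes overlapped that of its outer zone. In bases over 1000 bp from a TSS, replicate 1 had 456 summits per Mb within 500 bp of a tRNA gene (interval 362 to 568) and 228 in the outer zone, and replicate 2 had 199 (interval 139 to 277) and 257. The optimal set had 42.9 summits per Mb within 500 bp (interval 20.6 to 78.8), 31.9 from 500 to 2000 bp (interval 17.8 to 52.6), 22.7 from 2000 to 5000 bp (interval 13.7 to 35.4) and 36.1 in the outer zone (interval 30.1 to 43). In bases beyond 1000 bp of a TSS the optimal set had 11.4 (interval 1.38 to 41.2), 23.3, 14.1 and 18.4 in the same zones. Both over all bases and beyond 1000 bp of a TSS, the interval beside the tRNA genes overlapped that of each other zone. It rested on 10 summits over all bases and on 2 beyond 1000 bp of a TSS, and the zones were not tested against each other.

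**Figure D3:**
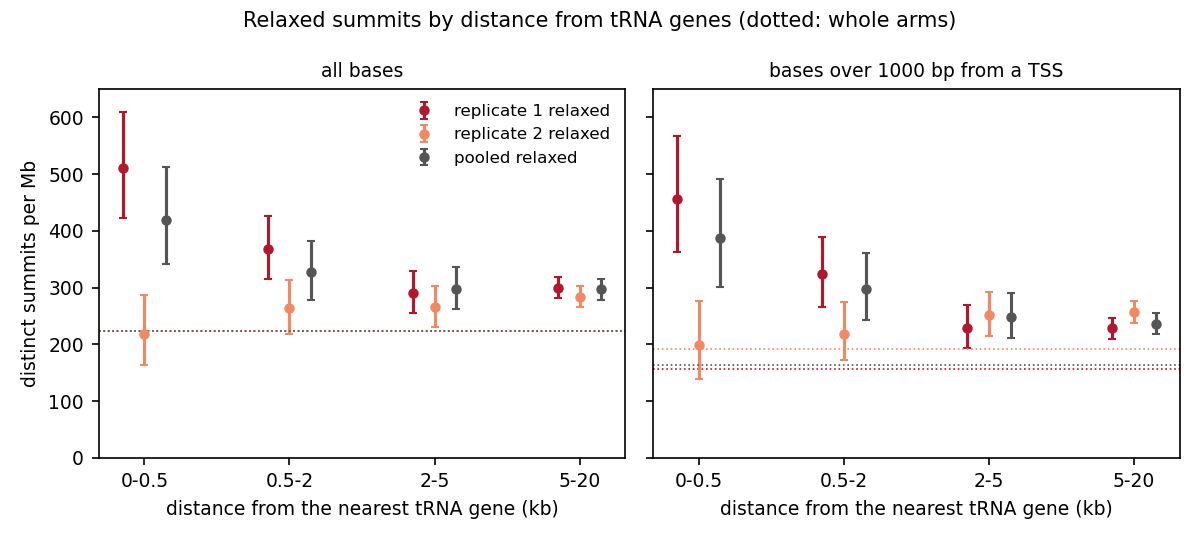
Distinct summits per Mb by distance from the nearest tRNA gene, over all bases (left) and over bases more than 1000 bp from a protein-coding TSS (right), with 95% exact Poisson intervals that cover counting only. Dotted lines give each list's density over the whole arms. Replicate 1 declines from 510 per Mb beside tRNA genes to about 300 farther out, while replicate 2 stands at 219 beside them and 284 farther out.

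Summit positions were laid on the direction of transcription, counting each pair of a gene and a summit. In replicate 1 the 500 bp upstream of the tRNA genes held 83 pairs, 2.55 times the number at the list's mean density, the gene bodies 17 pairs (3.44 times) and the 500 bp downstream 64 (1.97 times). In replicate 2 there were 28 pairs upstream (0.86 times), 6 inside (1.21 times) and 27 downstream (0.83 times). The pooled list gave 71 pairs upstream (2.18 times), 10 inside (2.02 times) and 54 downstream (1.66 times). In bins of 100 bp, the mean density of either list gives 6.51 pairs. The bin just upstream of the gene start, where TFIIIB sits, held 24 pairs in replicate 1, but the bins from 300 to 200 bp upstream and from 600 to 700 bp after the start held 22 each, so that no bin stood apart. In replicate 2 the bin just upstream held 1 pair, the first 100 bp after the start 7 and the bin from 300 to 200 bp upstream 10.

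**Figure D4:**
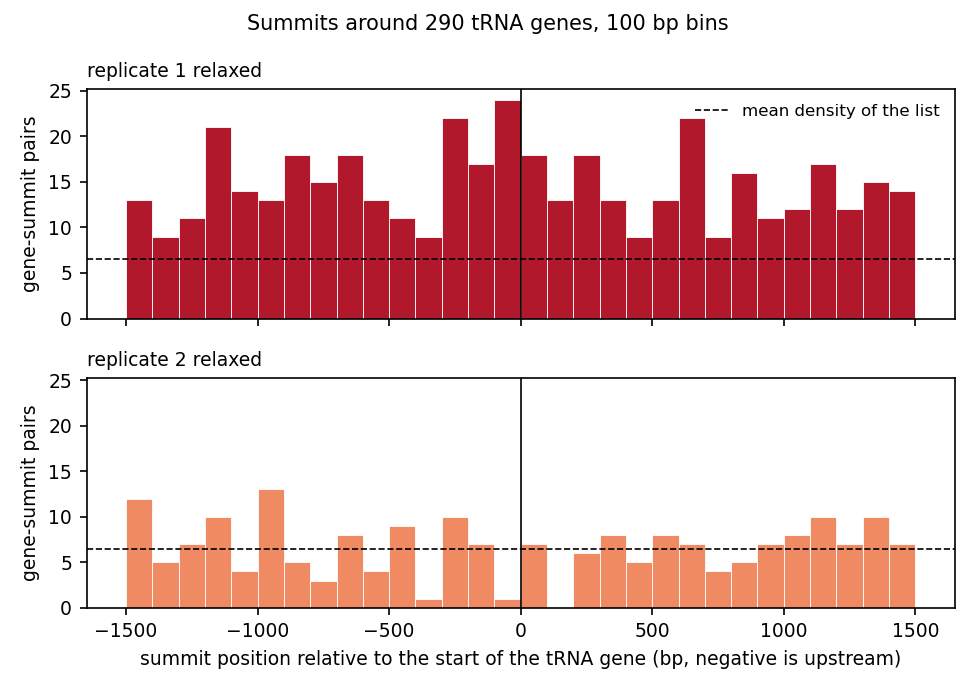
Number of gene and summit pairs in 100 bp bins around the start of 290 tRNA genes, oriented by strand, for each replicate list, with the number at the list's mean density as a dashed line at 6.51. Replicate 1 bins are above the line throughout, and replicate 2 bins scatter around it.

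By isotype, optimal summits were spread thinly: 2 aspartate genes and 1 gene each of the Gln, Glu, Gly, His, Leu, Phe, Thr, Trp, Tyr and Val isotypes. In replicate 1 the share with a summit ran from 35% of 20 serine genes to 72.7% of 11 isoleucine genes among isotypes with at least 5 genes. In replicate 2 it ran from 0 of 7 cysteine and 0 of 10 asparagine genes to 9 of 19 glutamate genes (47.4%). Initiator methionine genes, which start translation, had summits at 4 of 6 in replicate 1, 1 of 6 in replicate 2 and 4 of 6 in the pooled list, and elongator methionine genes at 4 of 6, 1 of 6 and 3 of 6. The sole selenocysteine gene, tRNA:SeC-TCA-1-1, had a weak summit in each replicate and none in the pooled list. Its replicate 1 summit, of rank 15826, lay 145 bp upstream of the gene. The replicate 2 summit, of rank 9014, lay 346 bp downstream, on the other side of the gene. With 1 to 26 genes in an isotype, shares of different isotypes rest on few loci and were not tested against each other.

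The glutamate genes with anticodon TTC, picked after their values were seen, had a summit at 5 of 6 genes in each of the replicate 1, replicate 2 and pooled lists. The shares of all positions in these lists were 19.7, 21.8 and 20.3%. Equal counts in both replicates were also found in other families, such as Glu-CTC (4 of 13 in each). Thr-AGT and Pro-AGG had more in replicate 2 (3 against 2 genes in each family). The 6 Glu-TTC genes lay in 4 loci, all over 1000 bp from a TSS. The summits coincided within 100 bp at 1 of these genes, Glu-TTC-1-5. At Glu-TTC-1-1 and Glu-TTC-1-2, which share their peaks, the best rank was 3306 in replicate 1 and 22992 in replicate 2. The asparagine family gave 4 of 10 genes in replicate 1, with best ranks of 24150 and 27078, and none in the replicate 2, pooled or optimal lists. Of the 14 aspartate genes, 7 had a replicate 1 summit and 5 a replicate 2 summit, and at 5 genes a summit of each replicate lay within 100 bp of the other. Among these were the pair beside Sema1a and the pair Asp-GTC-1-8 and Asp-GTC-1-9 in CG9289, where the shared peak ranked 9558 in replicate 1 and 15121 in replicate 2.

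**Figure D5:**
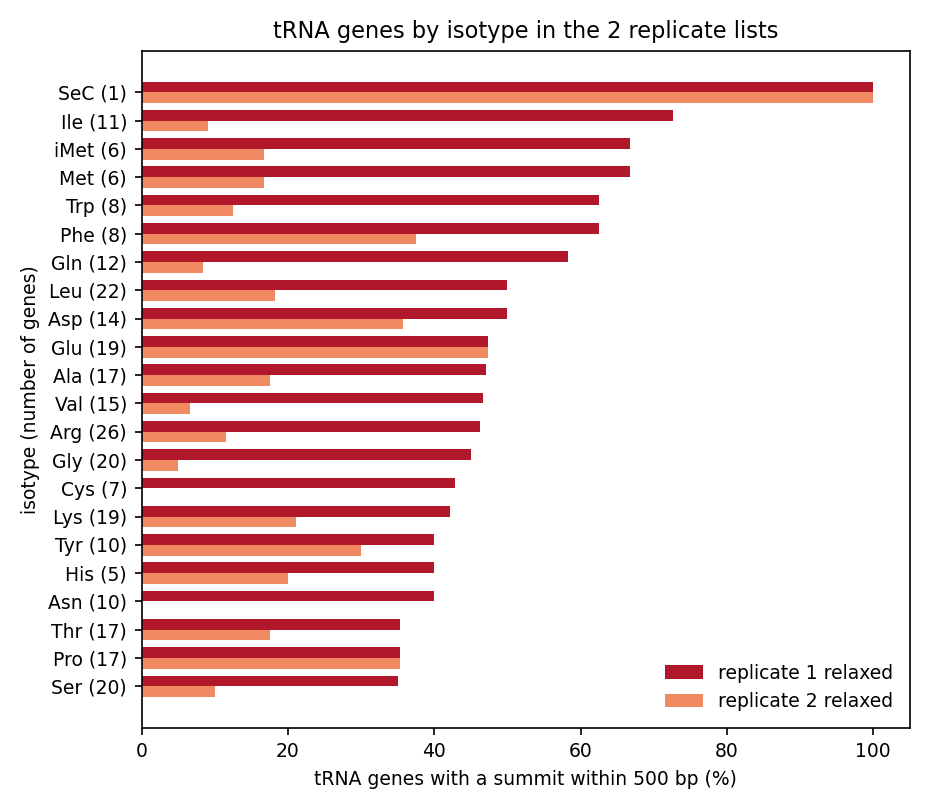
Percentage of the tRNA genes of each isotype with a summit within 500 bp in the replicate 1 (dark) and replicate 2 (light) relaxed lists, with the number of genes of the isotype in brackets. Replicate 1 is the higher in 19 of 22 isotypes, and glutamate (47.4% in each), proline (35.3% in each) and the sole selenocysteine gene are equal in both.

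Clustered and lone genes were counted apart, and so were copied and unique ones, with no test of either difference. Genes in loci of at least 2 genes had a replicate 1 summit in 100 of 185 cases (54.1%), against 37 of 105 genes that stand alone (35.2%). In replicate 2 the counts were 28 of 185 (15.1%) and 26 of 105 (24.8%), and in the pooled list 81 (43.8%) and 33 (31.4%). The optimal set had 7 clustered (3.78%) and 5 lone genes (4.76%). The 185 clustered genes lie in 69 loci, and neighbours can share 1 summit. Over all positions the shares were 19.7% in replicate 1, 21.8% in replicate 2, 20.3% in the pooled list and 2.38% in the optimal set. Genes with at least 1 identical copy elsewhere, where reads may map to several places, had pooled summits in 99 of 238 cases (41.6%) and genes with a unique sequence in 15 of 52 (28.8%). In replicate 1 these shares were 47.9% and 44.2%, and in replicate 2 18.1% and 21.2%. The treatment of reads with several matches is not given in the sources used here. Its part in these counts was not tested.

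None of the 5 largest loci, which held 31 genes, had an optimal or a replicate 2 summit. These counts stand beside 2.38% of all positions in the optimal set and 21.8% in replicate 2. The shares of positions were 19.7% in replicate 1 and 20.3% in the pooled list. Genes of a locus can share summits, and the loci were not tested. A locus of 7 genes on 2R, with 5 isoleucine (AAT) and 2 leucine (CAA) genes, had replicate 1 summits at 6 genes, with a best rank of 3468, and a pooled summit at 1. A locus of 7 genes on X, with 5 arginine (TCG) and 2 serine (CGA) genes over 2.47 kb, had replicate 1 summits at 3 genes, with a best rank of 6223, and pooled summits at 3. On 3L a locus of 4 cysteine and 2 lysine genes had replicate 1 summits at 4 genes, with a best rank of 10752, and pooled summits at 5. On 3R a locus of 5 arginine (ACG) genes and 1 asparagine gene had 3 and 3, with a best replicate 1 rank of 11135. A second 2R locus, of 5 genes, had no summit in any list.

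Among chromosome arms, 2R held 98 of the 290 tRNA genes. There 64 genes had a replicate 1 summit (65.3%, beside 19.5% of positions of the arm) and 20 a replicate 2 summit (20.4%, beside 20.9%). On 2L the counts were 17 of 41 in replicate 1 (41.5%, beside 20.6%) and 13 in replicate 2 (31.7%, beside 23.5%). On 3R they were 30 of 79 (38%, beside 19.3%) and 12 (15.2%, beside 22.8%), on 3L 18 of 48 (37.5%, beside 20.1%) and 6 (12.5%, beside 22.5%), and on X 8 of 24 (33.3%, beside 19.4%) and 3 (12.5%, beside 18.9%). Replicate 1 exceeded positions on all 5 arms with tRNA genes, and replicate 2 exceeded them on 2L. In the optimal set the counts were 2 of 41 on 2L (4.88%, beside 2.52% of positions) and 4 of 98 on 2R (4.08%, beside 2.36%). They were 0 of 48 on 3L (beside 2.23%), 4 of 79 on 3R (5.06%, beside 2.41%) and 2 of 24 on X (8.33%, beside 2.46%).

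Counts were also split by the internal promoter, by introns and by place. Genes with the box A core had optimal summits at 4 of 146 (2.74%), against 8 of 144 without it (5.56%), and replicate 1 shares were 47.3% and 47.2%. The box B core was present in all 12 genes with an optimal summit, and in 271 of 290 genes overall. Genes that contain an intron had optimal summits at 1 of 16 (6.25%), against 11 of 274 without an intron (4.01%). Their shares were 25% and 40.1% in the pooled list, 37.5% and 47.8% in replicate 1, and 18.8% and 18.6% in replicate 2, so the lists did not give 1 order. By place, the 127 genes inside introns of protein-coding genes had pooled summits at 36.2%, against 41% of the 156 outside protein-coding genes. The order was the other way in replicate 1 (49.6% and 46.2%) and in replicate 2 (20.5% and 14.1%). Of the 7 genes that overlap exons, in 6 loci, 4 had a pooled, 2 a replicate 1 and 6 a replicate 2 summit. The shares of all positions were 20.3, 19.7 and 21.8% in the same order. Among the 7, Pro-AGG-1-3 and Pro-AGG-1-4 share their pooled and replicate 2 summits.

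Other small RNA genes were counted by the same rule in the optimal set. Against the 4.14% of tRNA genes, 15 of 269 genes of small nucleolar RNAs had a summit (5.58%, Wilson interval 3.41 to 9%), 8 of 260 microRNA hairpins (3.08%, interval 1.57 to 5.95%) and 8 of 32 small nuclear RNA (snRNA) genes (25%, interval 13.3 to 42.1%). In replicate 1 the share was 47.2% of tRNA genes, against 35.3% of small nucleolar RNA genes, 33.1% of hairpins and 46.9% of snRNA genes. In replicate 2 it was 18.6% of tRNA genes, against 22.7%, 25% and 28.1% in the same order.

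Of the other RNA genes that Pol III transcribes, 3 of 105 had an optimal summit, beside 2.38% of all positions. The 96 annotated 5S ribosomal RNA genes, nearly identical and in tandem, had none in the optimal, pooled and replicate 1 lists and 1 in replicate 2. The U6 snRNA genes, whose Pol III promoter lies outside the gene, had an optimal summit at 2 of 3: snRNA:U6:96Ab and snRNA:U6:96Ac share the peak of rank 1702, with rank 1232 in replicate 1 and rank 14370 in replicate 2. The gene of 7SK RNA snRNA:7SKa, which binds the elongation factor P-TEFb, had rank 2427, with 2069 in replicate 1 and 2236 in replicate 2. The 7SL genes and the RNA genes of RNase P and RNase MRP had no optimal summit. Of the snRNA genes that Pol II transcribes, 5 of 21 had one, beside the same 2.38% of positions, with snRNA:U1:95Ca at rank 1100 the strongest.

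The protein genes of the Pol III machinery were read at their TSSs. Of 21 genes, 6 had an optimal summit within 500 bp, beside 16.5% of all protein-coding genes. Among them, Bdp1, a subunit of TFIIIB, had rank 42 with a signal of 514, rank 63 in replicate 1 and rank 28 in replicate 2. Brf, another TFIIIB subunit, had rank 200, with 221 in replicate 1 and 189 in replicate 2. Polr1D, a subunit shared with Pol I, had rank 1691. La, the protein that binds the 3-prime end of new Pol III transcripts, had rank 1721, and Pbp95, a subunit of the snRNA activator complex, had rank 2103. Trf, the TBP-type subunit in flies, had no optimal summit and ranked 18217 in the pooled list, and Maf1, the repressor of Pol III, had a summit in the replicate 2 list alone, at rank 9873. Of 17 genes for tRNA processing and modification, Rpp20, a protein of RNase P, was the only 1 with an optimal summit, at rank 1166.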

How the data were processed

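ChIP-seq peaks of GFP-tagged tx came from 2 biological replicates of whole embryos. The authors deposited dm6 peak lists, 30000 relaxed peaks per replicate and pooled and an optimal IDR set of 3102 called on both replicates, and each peak's signal value is theirs and was used only to rank peaks within a list. Not given in the sources used here: the aligner, peak caller and treatment of multiply mapping reads. Depth is unknown. The dm3 lists were not used.

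Genes came from Ensembl release 115 and sequence from the RefSeq Release 6 assembly, whose arm lengths match dm6. The share of positions is exact, over bases outside assembly gaps that lie within 536 bp of a summit, which stands for a 73 bp gene with 500 bp on each side. TSSs are those of protein-coding transcripts. Motif windows extend 50 bp either side of a summit. Analyses used Python 3.11.15, numpy 2.4.6, pandas 2.3.3 and scipy 1.17.1, and the counting was checked on planted summits. There is 1 group of 2 replicates, so no test was run.

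The members and gene lists were chosen with earlier results of these data known, and the density zones, rank tiers and matching of summits after the lists were opened. Of 18 tRNA processing entries, Trmt1 found no match. Named by rule were the tRNA gene nearest each of up to 20 strongest optimal summits within 500 bp, the 5 largest loci, the gene with the strongest summit per isotype, the 10 strongest distal genes, and up to 6 members per list, 1 of which is not reported here; the Glu-TTC, Asn, Asp and SeC genes, Trf and Maf1 were named after their values were seen. Alternatives changed peak threshold, distance, overlap rule, list, replicate, locus gap, arm and copy counting.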

Additional observations from a re-analysis of the deposited data

How the results depend on the processing

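The 12 tRNA genes with an optimal summit within 500 bp became 6 with the stronger 1551 peaks, 7 at 250 bp, 21 at 1000 bp, 2 when the peak had to overlap the gene, and 114 with the pooled relaxed list. The share of positions moved with them, from 2.38% to 1.22, 1.29, 4.41, 0.982 and 20.3% in the same order. The 10 loci became 6, 2 and 76 with the stronger peaks, the overlap rule and the pooled list. The ratio of the tRNA share to that of positions was 1.74. It was 1.7 with the stronger peaks, 1.87 at 250 bp, 1.64 at 1000 bp and 1.93 with the pooled list. It became 0.703 under the overlap rule, the 1 alternative run that put tRNA genes below positions. The replicate 2 relaxed list was not among these alternatives and also put them below, with 18.6% of tRNA genes and 21.8% of positions. The 2 distal genes became 1 at 250 bp, 7 at 1000 bp, 0 under overlap, 78 with the pooled list and 4 when distal meant over 500 bp from a TSS. Of distal positions, 1.06% were as close to an optimal summit and 15.4% to a pooled one. That share is not given for the other settings. The 2307 protein-coding genes became 1279 with the stronger peaks, 1527 under overlap and 7579 with the pooled list. These settings change the peaks, distance or genes that can count. With the 3102 strongest peaks of either replicate alone, tRNA genes numbered 9 to 14, loci 8 to 12 and the ratio 1.31 to 2.03. Counting identical sequences once gave 11 of 95 distinct sequences with a summit at any copy, a base unlike the 290 genes. Leaving out arm 2R gave 8 of 192 genes. Limits are the single group, the absence of an untagged control here, the shared control, unknown depth, and reads that may match several tRNA copies.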
